A study of Mus musculus with 8 samples.

Results

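T cell and NK cell genes were compared between spleen cells of mice with leukemia from 2 forms of the CBFb-SMMHC fusion. The genes were Cd3d, Cd3e, Cd3g, Cd4, Cd8a, Cd2, Lck, Thy1, Il7r and Nkg7. They were taken by name, and all their probe sets with that single gene symbol in the platform annotation were used. Of the 10 names, 9 had such probe sets, 15 in all, among 18193 genes with a probe set of 1 symbol, and Lck was not analysed here. The truncated mice expressed CBFb-SMMHCd179-221, a leukemia fusion protein that lacks a stretch contributing to high-affinity RUNX1 binding, and their spleens were taken 3 weeks after birth. The full-length mice carried the fusion CBFb-SMMHC, in which CBFb, a subunit of core-binding factor, is fused to a smooth muscle myosin tail, and their spleens were taken 2 months after they received the mutagen ENU. All the mice of both genotypes were leukemic, and the sample labels call both genotypes chimeras whereas the series text calls the full-length mice knock-in, so host cells without a fusion may have been present in a share not known here. Genotype, mutagen and age cannot be told apart in this design. Total RNA was hybridised to 8 Affymetrix mouse arrays, 4 per genotype. In each genotype the first of 2 animals had a single array, and the other had 3.

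A T cell recognises antigen through the T cell receptor, whose chains cannot signal on their own and depend on the CD3 subunits. The co-receptors CD4 and CD8 bind the MHC molecule that presents the antigen and bring the kinase LCK to the CD3 chains. NK cells and cytotoxic T cells share a killing apparatus of granules with granzymes and perforin, and NKG7 is a membrane protein of these granules. The spleen normally holds many T cells in its white pulp and some NK cells. Signal of a bulk sample falls both when there are fewer cells of a type and when each holds less RNA, and these cannot be told apart here.

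Values are log2 expression from RMA, an array summary that corrects background, equalises the distributions of the arrays and combines the probes of a probe set. RMA draws dim values together, so differences of dim genes are understated, and no detection calls were used, and low values were not taken to mean that a transcript was absent. The arrays did not group by the animals on the labels. Across all 45101 probe sets, array 1 of truncated animal 2 correlated with the array of truncated animal 1 at r = 0.987, against 0.976 with each of arrays 2 and 3 of its own animal. Array 1 of full-length animal 2 likewise correlated at r = 0.989 with the array of full-length animal 1, and at 0.954 and 0.953 with arrays 2 and 3 of its own animal. Arrays 2 and 3 correlated at r = 0.997 in both genotypes. These correlations are across probe sets, which are not independent replicates. The animal numbers on the labels may be wrong, or the arrays may differ by array number for another reason. These cannot be told apart here, and neither was tested. If the arrays numbered 1 of a genotype came from 1 animal, the n, SD and p-values given here do not measure the spread between animals. Results are given on animal means as labelled, and also for the arrays numbered 1 alone and for arrays 2 and 3 alone. The median of 11 neutrophil granule genes was 11.29 to 11.70 in truncated arrays, against 6.0 and 5.98 in the full-length arrays numbered 1 and 10.39 and 10.38 in full-length arrays 2 and 3. In the full-length arrays numbered 1 some granule enzyme genes were dim, beside a median of all probe sets of 4.76. Mpo read 5.57 and 4.86, Prtn3 5.55 and 4.77, Ctsg 3.99 and 4.54 and Elane 5.12 and 5.98. Other genes of the list were brighter there, with S100a8 at 10.25 and 10.50, S100a9 at 9.68 and 9.71 and Ngp at 7.77 and 7.46. The erythroid list was highest in these 2 arrays, at 11.05 and 11.43.

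Promoter sequences are shown for Nkg7, the one gene of the set that varied widely between arrays, and for the 3 CD3 genes, which define the T cell and stayed level. They are RefSeq windows on GRCm38.p6, from 250 bases before to 50 bases after each gene's start, on the gene's own strand, and capitals mark the core motif of RUNX factors, searched as TGTGGT and TGCGGT on both strands. The Nkg7 window is chr7:43436888-43437187 (+ strand), that of Cd3d is chr9:44981536-44981835 (+ strand), that of Cd3g is chr9:44980382-44980681 (- strand) and that of Cd3e is chr9:45009562-45009861 (- strand).
Nkg7: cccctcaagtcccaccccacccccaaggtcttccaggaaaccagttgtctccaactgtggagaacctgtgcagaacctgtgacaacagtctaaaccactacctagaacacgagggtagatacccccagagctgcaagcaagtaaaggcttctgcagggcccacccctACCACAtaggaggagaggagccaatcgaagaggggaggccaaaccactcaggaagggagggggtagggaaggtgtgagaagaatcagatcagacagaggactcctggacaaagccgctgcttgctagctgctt
Cd3d: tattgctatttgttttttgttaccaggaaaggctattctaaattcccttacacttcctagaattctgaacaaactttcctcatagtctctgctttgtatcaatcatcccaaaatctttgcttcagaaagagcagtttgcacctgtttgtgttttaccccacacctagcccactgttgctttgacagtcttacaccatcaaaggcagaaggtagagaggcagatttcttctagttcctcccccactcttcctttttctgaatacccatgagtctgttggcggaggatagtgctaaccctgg
Cd3g: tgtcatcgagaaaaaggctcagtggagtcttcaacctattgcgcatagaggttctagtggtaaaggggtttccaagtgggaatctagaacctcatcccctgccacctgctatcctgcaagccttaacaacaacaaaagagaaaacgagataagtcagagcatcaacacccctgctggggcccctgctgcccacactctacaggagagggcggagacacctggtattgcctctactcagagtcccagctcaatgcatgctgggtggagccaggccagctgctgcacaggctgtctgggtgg
Cd3e: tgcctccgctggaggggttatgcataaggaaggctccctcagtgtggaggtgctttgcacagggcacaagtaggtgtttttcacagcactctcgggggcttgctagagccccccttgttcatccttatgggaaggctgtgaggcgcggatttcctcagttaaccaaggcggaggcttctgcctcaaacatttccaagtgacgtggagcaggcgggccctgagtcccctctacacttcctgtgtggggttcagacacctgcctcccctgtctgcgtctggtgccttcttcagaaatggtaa
The Nkg7 window held 1 match and the CD3 windows held 0. Of the 6 measured genes of the set with a promoter in the table, 3 held a match, Nkg7, Cd8a and Il7r, and 22.4% of all 32851 promoters did. A match of these letters is a description of the sequence and not a binding site. Of the CD3 genes, Cd3g lay below the median of all probe sets in every array and Cd3d lay near it. Changes of these 2 genes may be understated.

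The CD3 subunits were level in every array and near the same value in both genotypes. Cd3e, which carries a signalling motif and pairs with both other CD3 chains, read 5.45 in truncated animal 1 and 5.78, 5.82 and 6.05 in arrays 1, 2 and 3 of truncated animal 2, against 5.64 in full-length animal 1 and 5.85, 5.91 and 5.84 in full-length animal 2. The groups overlapped throughout, and no array of either genotype stood apart. On animal means Cd3e was at 5.67 ± 0.30 in truncated and 5.75 ± 0.16 in full-length mice (SD, n = 2 animals each), a difference of -0.08 with a 95% interval of -0.74 to 0.57 (limma, adjusted p = 0.934).

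Cd3d, the delta chain, read 5.25 in truncated animal 1 and 4.63, 5.21 and 5.10 in truncated animal 2, against 5.26 in full-length animal 1 and 5.26, 4.87 and 4.91 in full-length animal 2. The lowest array was array 1 of truncated animal 2, and the other truncated arrays lay inside the full-length range of 4.87 to 5.26. The difference was -0.03 (95% interval -0.63 to 0.58, limma, adjusted p = 0.981). It was -0.32 in the arrays numbered 1 and 0.26 in arrays 2 and 3, so its sign did not hold within them.

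Cd3g, the gamma chain, lay below the median of all probe sets, 4.76, in all 8 arrays. It read 3.51 in truncated animal 1 and 3.21, 3.15 and 3.30 in truncated animal 2, against 3.71 in full-length animal 1 and 3.09, 3.17 and 3.27 in full-length animal 2. The arrays of animal 1 were the highest in each genotype, by less than 1 log2 unit. Cd3g was too dim for the filter of the main test, and the fit without a filter gave a difference of -0.08 (95% interval -0.74 to 0.59, limma, adjusted p = 0.958). For all 3 CD3 genes the intervals stayed inside 1 log2 unit in either direction on this compressed scale. They do not exclude a larger change of the transcripts, as differences of dim genes are understated and the animal labels may be wrong.

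The co-receptor genes were also level. Cd4, which marks helper T cells and is also made by some dendritic cells and macrophages, read 5.55 in truncated animal 1 and 5.46, 5.58 and 5.51 in truncated animal 2, against 5.24 in full-length animal 1 and 5.62, 5.60 and 5.17 in full-length animal 2. The truncated arrays fell inside the range of the full-length arrays. On animal means the difference was 0.18 (95% interval -0.38 to 0.75, limma, adjusted p = 0.807), and the other Cd4 probe set, 1427779_a_at, differed by -0.03 with all arrays between 3.65 and 4.02.

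Cd8a, the alpha chain of the co-receptor of cytotoxic T cells, had 5 probe sets whose differences lay between -0.11 and 0.38. The brightest, 1440164_x_at, read 5.38 in truncated animal 1 and 5.0, 5.11 and 4.81 in truncated animal 2, against 5.22 in full-length animal 1 and 5.55, 5.28 and 5.21 in full-length animal 2. Its groups overlapped, with a difference of -0.11 (95% interval -0.74 to 0.52, limma, adjusted p = 0.910). Its suffix marks probes that can match related sequences, and it was the only Cd8a probe set above the array median, in all 8 arrays. The probe sets 1425335_at, 1440811_x_at, 1451673_at and 1444078_at lay below the median of every array, and none passed when each probe set was tested on its own (limma, adjusted p = 0.621 to 0.997). Probe set 1444078_at was highest in arrays 2 and 3 of truncated animal 2, at 3.61 and 3.63, against 3.02 to 3.41 in full-length arrays.

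**Figure D1:**
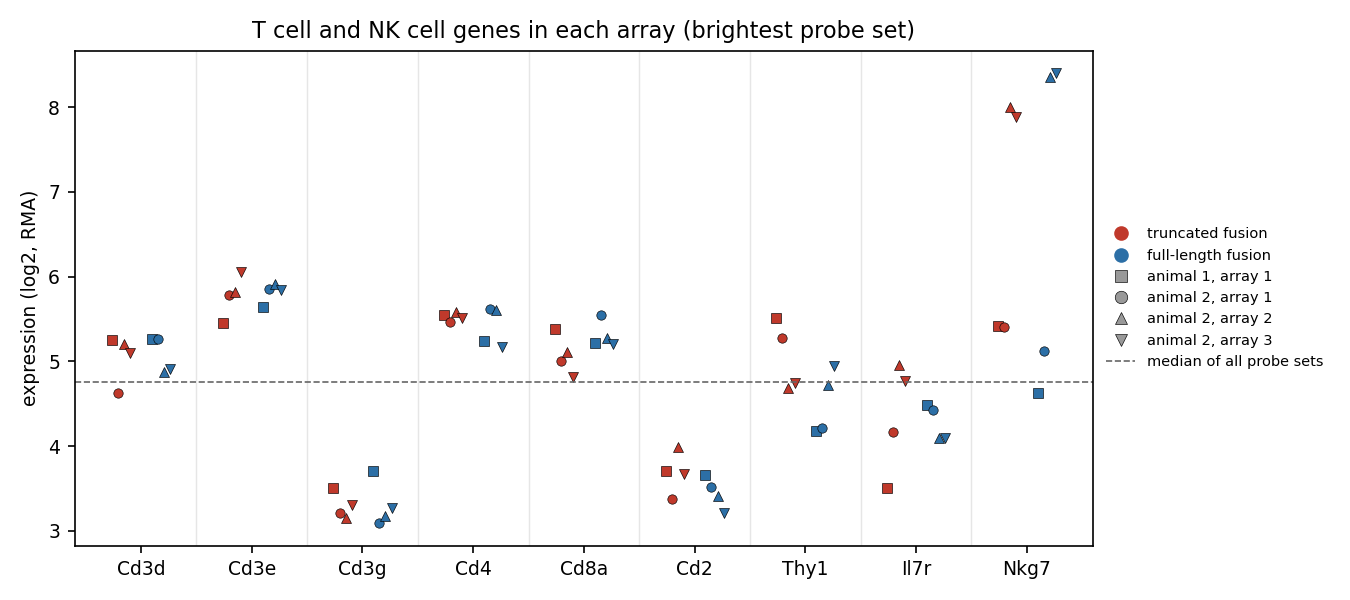
Log2 expression (RMA) of each T cell and NK cell gene by its brightest probe set, with truncated arrays in red at the left and full-length arrays in blue at the right of each gene, symbols for animal and array, and the median of all probe sets as a dashed line. Cd3d, Cd3e, Cd4 and Cd8a stay between 4.63 and 6.05, while Nkg7 lies at 7.88 to 8.40 in arrays 2 and 3 of both genotypes and at 4.63 to 5.42 in the arrays numbered 1.

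Cd2, an adhesion receptor of T and NK cells that binds CD48 in mice, lay below the median in all 8 arrays. It read 3.71 in truncated animal 1 and 3.38, 3.99 and 3.67 in truncated animal 2, against 3.66 in full-length animal 1 and 3.52, 3.41 and 3.21 in full-length animal 2. The highest array was array 2 of truncated animal 2, and the groups overlapped. In the fit without a filter the difference was 0.17 (95% interval -0.31 to 0.66, limma, adjusted p = 0.847). In arrays 2 and 3 alone Cd2 differed by 0.52, against -0.05 in the arrays numbered 1.

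Thy1 encodes a surface glycoprotein of mouse T cells that is also found on some progenitors, stromal cells and neurons, and it was the gene of the set with the smallest p. It read 5.51 in truncated animal 1 and 5.28, 4.69 and 4.74 in truncated animal 2, against 4.18 in full-length animal 1 and 4.21, 4.72 and 4.94 in full-length animal 2. The arrays numbered 1 were high in truncated and low in full-length mice, and arrays 2 and 3 of both genotypes met in the middle. On animal means Thy1 was at 5.20 ± 0.43 in truncated and 4.40 ± 0.31 in full-length mice (SD, n = 2 animals each), a difference of 0.80 (95% interval 0.01 to 1.60) with an unadjusted p of 0.0482 and an adjusted p of 0.348 in limma. Thy1 did not pass. Among the arrays numbered 1, which give 1 array per animal as labelled, the difference was 1.20 (95% interval 0.74 to 1.65, limma, adjusted p = 0.000156), and among arrays 2 and 3 alone, with 1 animal per genotype and no test, it was -0.11. In the fit on the arrays numbered 1, 26.4% of all genes passed, 14.5% with a higher value in truncated mice, so a call there was common. Whether the Thy1 difference itself differs between the array numbers was not tested. Stroma and endothelium markers, a list of 8 genes of which 4 passed the filter, had members that went opposite ways in the arrays numbered 1. The chemokine gene Cxcl12 read 8.10 and 8.13 in the truncated and 4.26 and 3.78 in the full-length arrays numbered 1, and the endothelial adhesion gene Pecam1 read 6.62 and 6.83 in truncated and 4.09 and 4.43 in full-length arrays. The matrix gene Dcn read 5.29 and 5.05 in the truncated and 8.94 and 8.47 in the full-length arrays numbered 1, and the receptor gene Kdr read 5.23 and 5.40 in truncated and 5.70 and 5.88 in full-length arrays. The medians of the 8 genes were 4.74 and 4.61 in the truncated and 4.07 and 4.03 in the full-length arrays numbered 1. Their part in the Thy1 values was not tested.

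Il7r encodes the alpha chain of the interleukin-7 receptor, through which naive T cells and lymphoid progenitors receive a survival signal. Its brightest probe set, 1448575_at, read 3.51 in truncated animal 1 and 4.17, 4.96 and 4.77 in truncated animal 2, against 4.48 in full-length animal 1 and 4.43, 4.10 and 4.10 in full-length animal 2. Truncated arrays held both the lowest value and the 2 highest values, with the full-length arrays in between. In the fit without a filter the difference was -0.27 (95% interval -1.34 to 0.79, limma, adjusted p = 0.898). It was 0.29 without truncated animal 1 and -0.84 without truncated animal 2. The other probe set, 1448576_at, read 3.68 in truncated animal 1 and 3.96, 4.25 and 4.16 in truncated animal 2, against 3.48 in full-length animal 1 and 3.62, 3.66 and 3.85 in full-length animal 2. It differed by 0.31, so the sign of the Il7r difference depended on the probe set, while both probe sets were highest in arrays 2 and 3 of truncated animal 2.

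**Figure D2:**
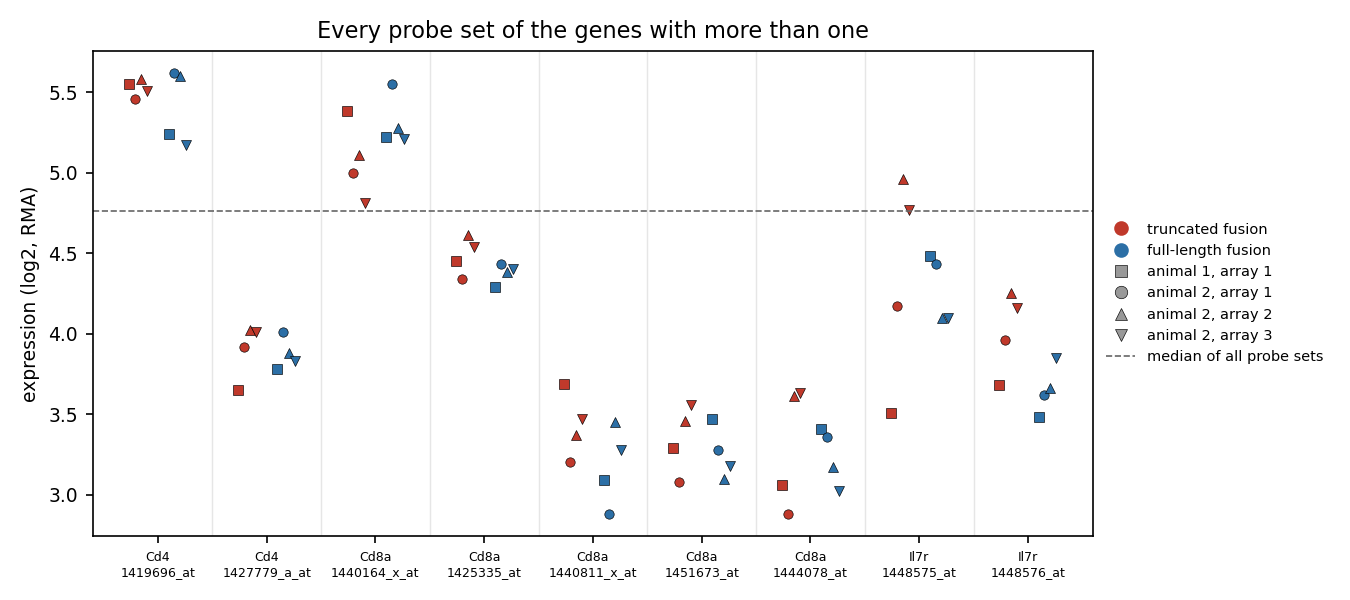
Log2 expression (RMA) in each array for every probe set of Cd4, Cd8a and Il7r, with truncated arrays in red at the left and full-length arrays in blue at the right, symbols for animal and array, and the median of all probe sets as a dashed line. One probe set each of Cd4 and Cd8a lies above the line in all 8 arrays, and both Il7r probe sets peak in arrays 2 and 3 of truncated animal 2.

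Nkg7, the granule membrane protein of NK cells and cytotoxic T cells, was the one gene of the set whose arrays spanned 2 log2 units or more. It read 5.42 in truncated animal 1 and 5.40, 8.0 and 7.88 in truncated animal 2, against 4.63 in full-length animal 1 and 5.12, 8.35 and 8.40 in full-length animal 2. Arrays 2 and 3 were high and the arrays numbered 1 were low in both genotypes, with no value in between. Within truncated mice arrays 2 and 3 lay 2.52 above the arrays numbered 1 on average, and within full-length mice 3.50 above. The difference between genotypes was 0.30 on animal means (95% interval -2.22 to 2.82, limma, adjusted p = 0.939), 0.54 in the arrays numbered 1 (95% interval 0.07 to 1.01, limma, adjusted p = 0.0890) and -0.44 in arrays 2 and 3, which allow no test. A range of at least 2 log2 units was found in 1 of the 6 genes of the set kept by the filter and in 11.6% of all genes. A gap of at least 2 log2 units between arrays 2 and 3 and the arrays numbered 1, in both genotypes and in that direction, was found in 26 of 11387 genes, 0.228%, Nkg7 among them. The size of that gap was chosen after the values were seen. Cell type markers moved with the array number too. The median of 9 erythroid markers was 8.31 and 8.35 in arrays 2 and 3 and 9.74 and 9.53 in the arrays numbered 1 of truncated mice, and 8.11 and 8.14 in arrays 2 and 3 and 11.05 and 11.43 in the arrays numbered 1 of full-length mice. Of these 9 genes, 6 were lower in both arrays 2 and 3 than in both arrays numbered 1 in each genotype, against 12% of all genes. Of the 11 neutrophil granule genes, 7 were higher in arrays 2 and 3 in each genotype, against 10.7% of all genes. So were 7 of 18 T cell receptor signalling, 5 of 13 interleukin-7 pathway and 5 of 20 other T cell genes. Lower in both were 0, 1 and 0 of these lists in turn. Among the 9 T cell and NK cell genes, 1 was higher, Nkg7 itself, and 0 were lower. The part of these cell types and lists in the Nkg7 values was not tested.

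The 3 genes whose profile over the 8 arrays was nearest to that of Nkg7, by root-mean-square difference after centring each gene, were Arpp21 (0.16 log2 units), Mab21l1 (0.28) and Bmp7 (0.31). Arpp21, a phosphoprotein gene also used by early thymocytes, read 5.18 in truncated animal 1 and 5.20, 7.45 and 7.46 in truncated animal 2, against 4.45 in full-length animal 1 and 4.46, 7.88 and 8.06 in full-length animal 2. Mab21l1 read 3.22, 3.23, 6.50 and 6.39 in the truncated arrays in the same order, against 3.04, 3.27, 6.35 and 6.37 in the full-length arrays. The growth factor gene Bmp7 read 5.04, 4.79, 7.29 and 7.19 in truncated arrays and 4.64, 4.56, 8.32 and 8.47 in full-length arrays. In Nkg7 the split between array numbers was larger than the difference between genotypes. The 3 genes were picked for likeness to Nkg7 over these same arrays, so their sharing that split follows from the choice.

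Of the 11 NK cell and cytotoxic genes that passed the filter on dim values, Gzmb alone was among those 26 genes, and it is named here after its values were seen. By any margin, 4 of the 21 measured genes of that list (19%) were higher in arrays 2 and 3 in each genotype, Gzmb among them. The share of all genes was 10.7%. Gzmb, the granzyme that cleaves caspases in target cells, read 4.83 in truncated animal 1 and 4.39, 8.14 and 8.13 in truncated animal 2, against 4.68 in full-length animal 1 and 4.57, 9.10 and 9.27 in full-length animal 2. Perforin (Prf1), which opens the pore for granzymes, stayed between 3.95 and 4.58 in truncated and 3.89 and 4.40 in full-length arrays. The NK receptor gene Ncr1 stayed between 3.75 and 4.46 in truncated and 3.81 and 4.16 in full-length arrays, and Eomes, a transcription factor of NK cells, between 3.12 and 3.58 in truncated and 3.21 and 3.39 in full-length arrays. Gzma, the other major granzyme, read 4.92, 4.44, 5.10 and 5.02 in truncated arrays and 4.75, 4.58, 3.81 and 3.54 in full-length arrays, so it was not high in full-length arrays 2 and 3. Klrd1, the CD94 chain of NK receptors, read 3.68, 3.84, 6.47 and 6.70 in truncated arrays and 4.71, 4.21, 3.90 and 3.40 in full-length arrays, high in arrays 2 and 3 of truncated animal 2 alone. Prf1, Ncr1, Eomes, Gzma and Klrd1 were likewise picked with their values known. Of them only Gzma passed the filter on dim values, and differences of dim genes are understated.

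**Figure D3:**
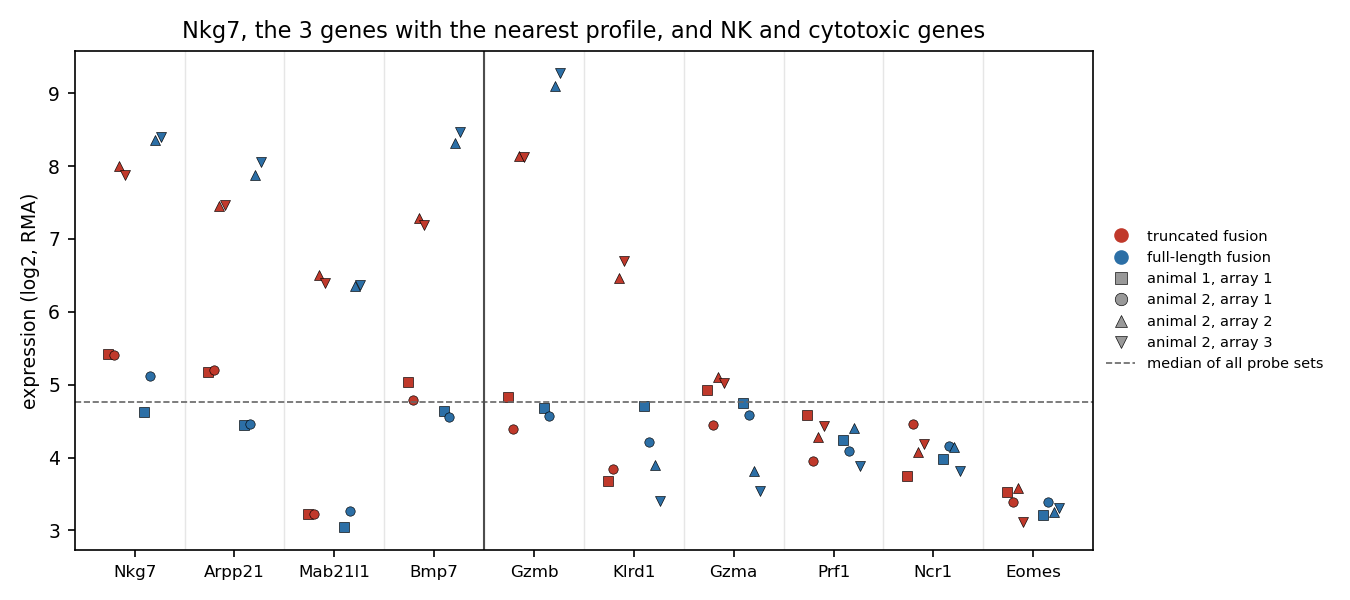
Log2 expression (RMA) in each array for Nkg7 and the 3 genes nearest to its profile (left of the line) and for 6 NK cell and cytotoxic genes (right of the line), with truncated arrays in red at the left and full-length arrays in blue at the right of each gene, and the median of all probe sets as a dashed line. Gzmb follows Nkg7, at 8.13 to 9.27 in arrays 2 and 3 and 4.39 to 4.83 in the arrays numbered 1, whereas Prf1, Ncr1 and Eomes stay at or below 4.58 in all arrays.

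Of the 9 measured genes, 6 passed the filter on dim values, and Cd3g, Cd2 and Il7r did not. Of these 6, 0 had an adjusted p under 0.05 in limma, as had 0% of all 11387 genes, and 1, Thy1, had an unadjusted p under 0.05, against 14.1% of all genes. The arrays of the genotypes failed to overlap in 0 of the 6, against 19.1% of all genes. Their median difference was 0.08, with 3 values higher and 3 lower in truncated mice, beside a median of -0.01 over all genes. A fit on all 8 arrays with the array number as a replicate block called 5.19% of all genes and 0 of the 6 (limma, adjusted p = 0.355 to 0.968).

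**Figure D4:**
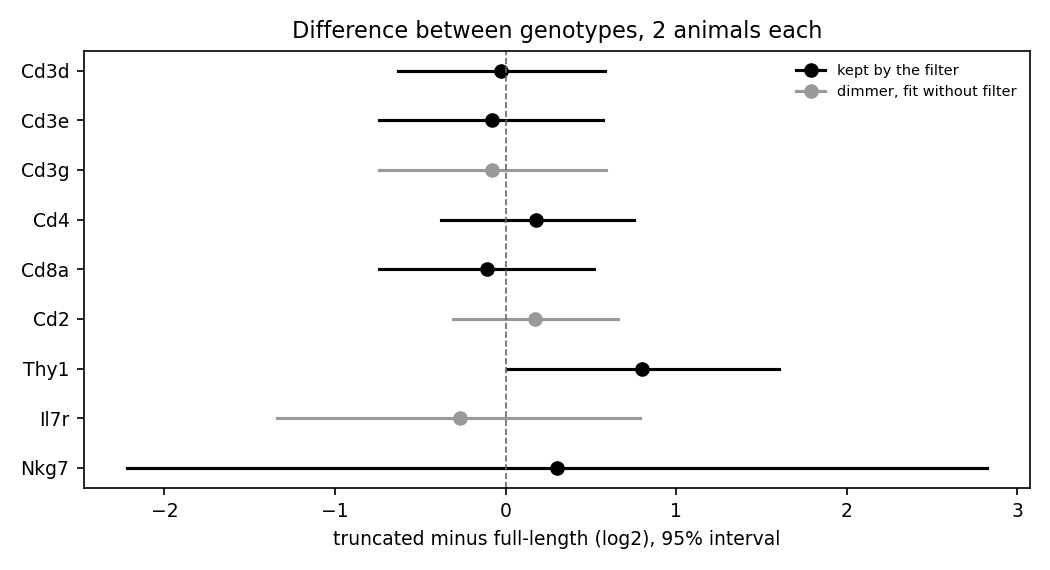
Difference between genotypes (truncated minus full-length, log2) with its 95% interval from limma for each gene, 2 animals per genotype, in black for genes of the main fit and in grey for the 3 dimmer genes, taken from the fit without a filter. The points of the CD3, Cd4, Cd8a and Cd2 genes lie within 0.18 of 0, and the Nkg7 interval runs from -2.22 to 2.82.

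The companion genes of T cell receptor signalling, many of which other blood cells use as well, included genes with larger differences than the CD3 genes. Of 20 genes listed, 18 had a probe set and 13 passed the filter, with 8 values higher and 5 lower in truncated mice, a median difference of 0.21 and 0 adjusted p under 0.05. Unadjusted p under 0.05 was reached by 2 of the 13, both with higher values, against 8.81% of all genes in that direction and 5.31% in the other. Ptprc, the phosphatase CD45 found on all white blood cells, was at 10.50 ± 0.29 in truncated and 8.96 ± 0.29 in full-length mice (limma, adjusted p = 0.105). Vav1, an exchange factor of blood cells, was at 8.13 ± 0.01 in truncated and 7.22 ± 0.37 in full-length mice (limma, adjusted p = 0.231). Ptpn22, a phosphatase that restrains receptor signalling, was at 6.92 ± 0.68 in truncated and 5.90 ± 0.45 in full-length mice (limma, adjusted p = 0.366). Lat, the adaptor that T cells share with mast cells and platelets, read 8.49, 8.74, 10.20 and 10.27 in truncated arrays and 6.20, 6.40, 11.32 and 11.25 in full-length arrays. As with Nkg7, arrays 2 and 3 of Lat were the high ones in both genotypes, and the difference on animal means was 1.19 (limma, adjusted p = 0.751). Truncated arrays read higher than full-length arrays among the arrays numbered 1 and lower among arrays 2 and 3. The 8 mast cell and basophil markers had medians of 9.30 to 9.46 in truncated arrays, and of 7.33 and 7.61 in the arrays numbered 1 and 10.58 and 10.61 in arrays 2 and 3 of full-length mice. Their part in the Lat values was not tested.

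Other T cell surface and identity genes mostly lay below the filter on dim values. Of 22 listed, 20 had a probe set and 7 passed the filter, with a median difference of 0.12, 4 values higher, 3 lower and 0 adjusted p under 0.05. The median over the 20 genes, which lay below the filter and so says little of the brighter members, was 4.11 to 4.39 in truncated and 4.15 to 4.32 in full-length arrays. Of the 7 genes that passed, 3 spanned at least 2 log2 units over the 8 arrays, Satb1 (3.51), Gata3 (2.97) and Ms4a4b (2.37). Gata3, a transcription factor of T helper and innate lymphoid cells that mast cells also use, read 3.83, 3.87, 3.89 and 3.94 in truncated arrays and 5.71, 5.82, 6.62 and 6.80 in full-length arrays. Its groups did not overlap, and its difference of -2.19 did not pass (limma, adjusted p = 0.0822). Satb1, a chromatin organiser of thymocytes, read 6.04, 6.08, 7.46 and 6.79 in truncated arrays and 4.42, 3.95, 5.48 and 5.53 in full-length arrays, again without overlap and without passing (difference 1.71, limma, adjusted p = 0.134). Zbtb7b and Runx3, factors of the CD4 and CD8 lineages in turn, differed by 0.49 and 0.38 (limma, adjusted p = 0.416 and 0.553).

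In the NK cell and cytotoxic list, 21 of 24 genes had a probe set and 11 passed the filter, with 8 values higher and 3 lower in truncated mice, a median difference of 0.38 and 0 adjusted p under 0.05. Those with the largest differences are not confined to lymphocytes. Tyrobp, the adaptor DAP12 of NK and myeloid receptors, was at 11.04 ± 0.37 in truncated and 9.23 ± 0.27 in full-length mice (difference 1.81, limma, adjusted p = 0.0865). The cystatin gene Cst7 was at 8.65 ± 0.58 in truncated and 7.44 ± 1.12 in full-length mice (limma, adjusted p = 0.457), and the repressor gene Id2 at 9.15 ± 0.52 in truncated and 8.05 ± 0.39 in full-length mice (limma, adjusted p = 0.271). The chemokine gene Ccl5 read 4.92, 5.15, 6.47 and 6.70 in truncated arrays and 6.78, 6.45, 5.89 and 6.02 in full-length arrays, with a difference of -0.93 (limma, adjusted p = 0.472). Markers of monocytes and macrophages, which also make Tyrobp, had list medians of 8.29 to 8.60 in truncated and 6.39 to 7.19 in full-length arrays over 10 genes, and their part in the Tyrobp values was not tested.

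Along the interleukin-7 pathway, 13 of 14 genes had a probe set and 11 passed the filter, with 6 values higher and 5 lower, a median difference of 0.14 and 0 adjusted p under 0.05. Jak3, the kinase of the receptor's common gamma chain, read 7.20, 7.58, 7.37 and 7.40 in truncated arrays and 5.56, 5.97, 6.53 and 6.39 in full-length arrays, without overlap (difference 1.40, limma, adjusted p = 0.158). Bcl2, the survival gene that interleukin-7 maintains in T cells, read 6.24, 6.22, 8.31 and 8.45 in truncated arrays and 4.82, 4.77, 8.84 and 8.95 in full-length arrays, and so followed the array number as Nkg7 did (limma, adjusted p = 0.811). Foxo1, a factor that activates Il7r in T cells, differed by 0.74 and the kinase gene Pim1 by -0.71 (limma, adjusted p = 0.276 for both).

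Of 12 thymocyte and early T lineage genes, all with a probe set, 5 passed the filter, with 4 values higher, 1 lower, a median difference of 0.32 and 0 adjusted p under 0.05. Notch1, the receptor that commits progenitors to the T lineage, was at 7.30 ± 0.22 in truncated and 6.02 ± 0.18 in full-length mice (difference 1.29, limma, adjusted p = 0.111), while its target Hes1 had the opposite sign (difference -1.27, limma, adjusted p = 0.497) and was high in the full-length arrays numbered 1 alone, at 6.92 and 6.10. Cd1d1, which presents lipids to NKT cells, was at 7.12 ± 0.48 in truncated and 5.65 ± 0.32 in full-length mice (limma, adjusted p = 0.152), by a probe set whose suffix marks shared sequence.

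Arrays 2 and 3 of truncated animal 2 were the highest of the 8 for genes of several cell types, but not for the CD3 genes as a group. Both lay above the other 6 arrays, by any margin, for 1 of the 9 T cell and NK cell genes, Il7r, and for 8.72% of all genes. The same held for 7 of 9 B cell, 8 of 8 plasma cell, 6 of 9 dendritic cell and 7 of 11 neutrophil granule markers. It also held for 6 of 20 other T cell genes and 6 of 21 NK cell and cytotoxic genes, Klrd1 among them. Some margins were small, as for the plasma cell marker Tnfrsf17, at 4.20 and 4.23 against 3.96 to 4.13 in the other arrays. Ms4a4b, a membrane gene of T cells named after its values were seen, read 4.92 and 4.85 in the truncated arrays numbered 1, 7.05 and 7.21 in arrays 2 and 3, and 5.04 to 5.98 in full-length arrays. The median of the 9 measured B cell markers was 5.73 and 5.94 in these 2 arrays, against 4.66 and 4.42 in the other truncated arrays and 4.12 to 4.61 in full-length arrays. The plasma cell median was 5.65 and 5.82 in these 2 arrays, against 4.46 and 4.83 in the other truncated and 4.77 to 5.05 in full-length arrays, and the joining chain gene Jchain read 10.85 and 10.81, against 3.56 and 3.32 in the other truncated and 4.84 to 6.43 in full-length arrays. The dendritic cell median was 6.06 and 6.38, against 5.67 and 5.41 in the other truncated and 5.14 to 5.38 in full-length arrays. In the same 2 arrays Cd3d read 5.21 and 5.10 and Cd3g 3.15 and 3.30, inside the range of the full-length arrays, whereas Cd3e array 3 was the highest of the 8 at 6.05. The part of these cell types in the Il7r values was not tested.

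**Figure D5:**
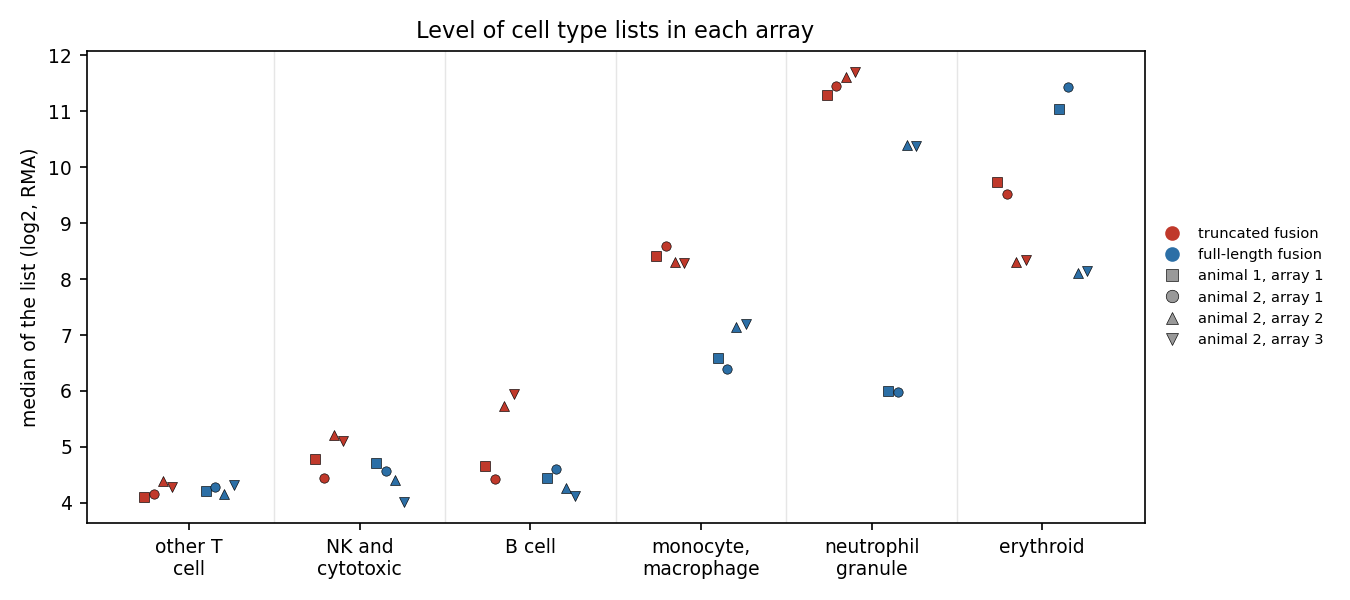
Median log2 expression (RMA) of 6 gene lists in each array, with truncated arrays in red at the left and full-length arrays in blue at the right of each list and symbols for animal and array. The median of the other T cell genes, most of them below the filter on dim values, lies at 4.11 to 4.39, that of the B cell markers is highest in arrays 2 and 3 of truncated animal 2, that of the neutrophil granule list runs from 5.98 to 11.70, and that of the erythroid list is highest in the full-length arrays numbered 1.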

How the data were processed

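The authors deposited 1 table of log2 values for 45101 probe sets on 8 arrays. They were made with RMA per the submitters' processing notes (version not given). The log base was inferred from the values, which run from 1.79 to 14.11 with array medians of 4.71 to 4.78. Probe sets were named by the platform annotation: 34945 had 1 symbol, 932 had several and were left out, and 64 control probe sets were left out.

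The labels put 1 array in animal 1 and 3 in animal 2 of each genotype. Arrays were averaged per animal, the brightest probe set stood for each gene, and genes above the median over all probe sets, 4.76, in at least 2 of 4 animals were tested, 11387 in all. Genotypes were compared as truncated minus full-length on the log2 scale in limma 3.58.1 (lmFit, eBayes; R 4.3.3) with 2 residual and 3.24 prior degrees of freedom and Benjamini-Hochberg adjustment over all genes. With 2 animals a side, the smallest two-sided p of an exact permutation test is 0.333, so none is given. The number of arrays limits the precision, and p-values measure the spread between these animals as labelled. That spread takes in the split between array numbers, as the mean of animal 2 pools array 1 with arrays 2 and 3. The fits were tested on simulated data. There the fit on animal means called 0.3% of changes of 1 log2 unit and 34.5% of changes of 2 log2 units. A gene that was not called may still differ.

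Array numbers are shared by the genotypes. Deviations from the genotype mean correlated at 0.23, 0.23 and 0.21 for numbers 1, 2 and 3, but number 2 of the truncated correlated at 0.22 with number 3 of the full-length mice, so numbers 2 and 3 are not distinct. A replicate block was fitted as an alternative. The genes and gene lists were chosen with earlier results of these data known. Named beside the set were the 4 kept genes of each of 5 companion lists with the largest absolute difference, as none passed, and the 3 genes nearest to each member spanning at least 2 log2 units. Other genes were named after their values were seen, and not all are marked so where they appear. Among those without a mark are Jchain and the neutrophil granule and stroma and endothelium genes given by array.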

Additional observations from a re-analysis of the deposited data

How the results depend on the processing

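The count of T cell and NK cell genes called, 0 on animal means, was also 0 in 21 of 22 alternatives set out for it. With 1 array per animal it was 1, Thy1. Over all genes, 0 were higher and 0 lower on animal means in limma (1003 and 605 at an unadjusted p under 0.05). The counts higher and lower were 264 and 81 on 8 arrays with the animal as a random block, 412 and 179 with the replicate block added, 1654 and 1354 with 1 array per animal, 2 and 1 with a robust prior and an intensity trend, and 365 and 83 without arrays 2 and 3 of truncated animal 2. With all 4 animals above the median, 1 was lower. Leaving out 1 animal or array gave 0 to 441 higher and 0 to 207 lower, with both highest values without full-length animal 2, and 0 genes of the set. Leaving out array 2 or 3 of full-length animal 2 gave 291 and 41, or 377 and 46. The replicate block changed no call among the set. Where an animal was left out, the lone animal was assumed to vary like the others.

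Thy1 kept a positive difference in the 22 alternatives set out for it (it was -0.11 in arrays 2 and 3 alone, an alternative added after the data were seen), with adjusted p from 0.000156 to 0.988. Cd4 stayed positive by its brightest probe set and by the mean of its probe sets, at 0.07 to 0.29, while its other probe set differed by -0.03. The differences of the other measured genes of the set changed sign in some alternatives, those of Il7r and Nkg7 over a wide range. Without full-length animal 1, Cd3d was 0.10, Cd3g 0.19 and Nkg7 -1.03. Without truncated animal 2, Cd3d was 0.11, Cd3g 0.07, Cd8a 0.09 and Nkg7 -0.54, and Il7r, -0.27 on animal means, was -0.84. Without truncated animal 1, Il7r was 0.29. With the mean of a gene's probe sets, Il7r was 0.02 and Cd8a 0.06. With 1 array per animal Cd2 was -0.05. Without array 1 of full-length animal 2, Cd3d was 0.04 and Nkg7 -0.25. Without array 1 of truncated animal 2, Cd3d was 0.06. Cd3e was 0.03 without full-length animal 2 and 0.13 without truncated animal 1. Without both full-length arrays numbered 1, Cd3d was 0.22, Cd3g 0.15 and Nkg7 -2.12. In arrays 2 and 3 alone, Cd3d was 0.26, Cd3e 0.06, Cd3g 0.01, Il7r 0.77 and Nkg7 -0.44. Without arrays 2 and 3 of truncated animal 2, Nkg7 was -0.55. The cause was not tested. Over the settings that left out 1 animal or array, Cd3d ran from -0.16 to 0.11, Cd3e from -0.30 to 0.13, Cd3g from -0.34 to 0.19, Cd8a from -0.31 to 0.09, Il7r from -0.84 to 0.29 and Nkg7 from -1.03 to 1.63. Of the differences that changed sign, none that was tested passed (adjusted p of 0.288 or more).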

Other observations

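The 26 genes with a gap of at least 2 log2 units between arrays 2 and 3 and the arrays numbered 1, in both genotypes, included genes known from several cell types. Besides Nkg7, Gzmb, Bcl2 and Arpp21 they included Kit, the stem cell factor receptor, with a gap of 2.30 in truncated and 2.61 in full-length mice, and Cd69, an early activation marker of lymphocytes, with gaps of 3.41 in truncated and 5.37 in full-length mice. The neutrophil elastase gene Elane had gaps of 2.26 in truncated and 3.42 in full-length mice. Skap1, an adaptor of T cells, had the reverse profile in full-length mice, at 7.46 and 7.33 in the arrays numbered 1 and 3.15 in arrays 2 and 3, while truncated arrays lay between 3.44 and 4.20. These genes were named after their values were seen, and no test was made.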
